A study of Tachycineta bicolor with 30 samples.

Results

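Transcripts of corticotropin-releasing hormone (CRH), its receptors and binding protein, and the corticosteroid receptors were followed in the brain of female tree swallows (Tachycineta bicolor). The gene set held 8 protein titles: corticoliberin (the protein name of CRH), corticotropin-releasing factor receptor 1 (CRHR1) and 2 (CRHR2), corticotropin-releasing factor-binding protein (CRHBP), urocortin-3 (UCN3), the glucocorticoid receptor (NR3C1), the mineralocorticoid receptor (NR3C2) and the co-chaperone FKBP5. Of the 19478 transcripts in the table, 7 of the 8 titles had a row, and FKBP5 is not analysed here. Where a title had more than 1 row, the row with the highest mean over the 27 libraries was taken. The members were thus chosen by these measured means: CRH was the row with a mean of 114 normalized counts and not the other with 85.3, and CRHR2 the row with 240 and not the other with 175. In the results, CRH names the row with the mean of 114. Whether the other CRH row is a separate gene or a part of the same gene was not settled. All 7 passed the filter on low values. The CRH difference between stages in the hypothalamus was already known when the genes were proposed, so it is described here and is not independent evidence.

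Free-living adult females were caught in their nest boxes either during territory establishment (TE, 4 females), when they competed for boxes and their follicles were still small, or during incubation (INC, 5 females), when they sat on completed clutches. No treatment was given, and stage and date within the season cannot be told apart. Each brain was cut by hand into blocks, of which 3 were sequenced: the hypothalamus with the preoptic area (HYPO), the ventromedial part of the caudal telencephalon around nucleus taeniae (VmT) and the hindbrain (HB). Each block is a mixture of many cell types, so fewer cells of a type and less RNA per cell cannot be told apart. Females are the replicates, and the same females gave all 3 regions, except that the labels of 1 VmT library of TE carry the numbers of more than 1 female (85691 and 85692). Both belong to TE, and it is named the unsettled library here. The paper removed 1 TE female for low RNA integrity in the HB and HYPO, and its supplement names the outlier as 85692. The unsettled library may be hers, which would add a female to the 4 of TE.

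CRH is made by neurons of the paraventricular nucleus of the hypothalamus and starts the endocrine stress response: it makes the pituitary release ACTH, which makes the adrenal gland release corticosteroids, in birds mainly corticosterone. Corticosterone then binds the mineralocorticoid receptor, which has the higher affinity, and the glucocorticoid receptor, and both act as transcription factors and restrain the axis. CRH is also made by neurons outside the hypothalamus, where it acts on CRHR1 and CRHR2 as a neuromodulator, and CRHBP binds the peptide and limits how much of it reaches the receptors.

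Values are normalized counts, that is, reads scaled by a size factor for the depth of each library. They are not scaled by transcript length, so the level of a member was compared between samples and not with that of another member. Summed levels of a marker list add these unscaled counts, so genes with high counts weigh most in them. Reads recovered from the values and summed over the 19478 transcripts came to 6001315 to 13710385 per library (median 8308433). The paper reports a larger number of mapped read pairs per sample, and the cause of the gap was not tested. Differences are log2 differences of the normalized count plus 1, from 1 limma fit of the 6 region and stage groups over 19473 transcripts, positive when the first-named group was higher. A difference was called where its adjusted p (Benjamini-Hochberg over all transcripts of that contrast) was at most 0.05. Each share of all transcripts called is that of this limma fit. Such shares are not given for other tools or settings, so counts from those cannot be set against them.

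Marker genes matched the region labels in most libraries, given here as the mean log2 level of each list. Telencephalon markers were at 7.51 to 8.13 in the VmT and at most 6.94 in the HYPO and 5.00 in the HB, hindbrain markers at 6.70 to 7.81 in the HB and at most 1.5 elsewhere, and hypothalamus markers at 4.02 to 5.93 in the HYPO. Certain libraries stood apart. The HB library of INC female 85889 held pituitary transcripts, with a summed level of the 6 matched pituitary markers of 89038 against 4.84 to 686 in the other HB libraries. The VmT libraries of INC females 85757 and 85899 had the highest hypothalamus marker levels of that region (3.87 and 3.90, against 2.19 to 3.20 in the others). Thalamus and midbrain markers in the VmT were at 2.82 to 5.37 during TE and at 5.31 to 5.88 during INC, and the part of this in any VmT stage difference was not tested. The called differences of the members and second rows that use these libraries are given with and without them, for some as a range over several fits.

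**Figure D1:**
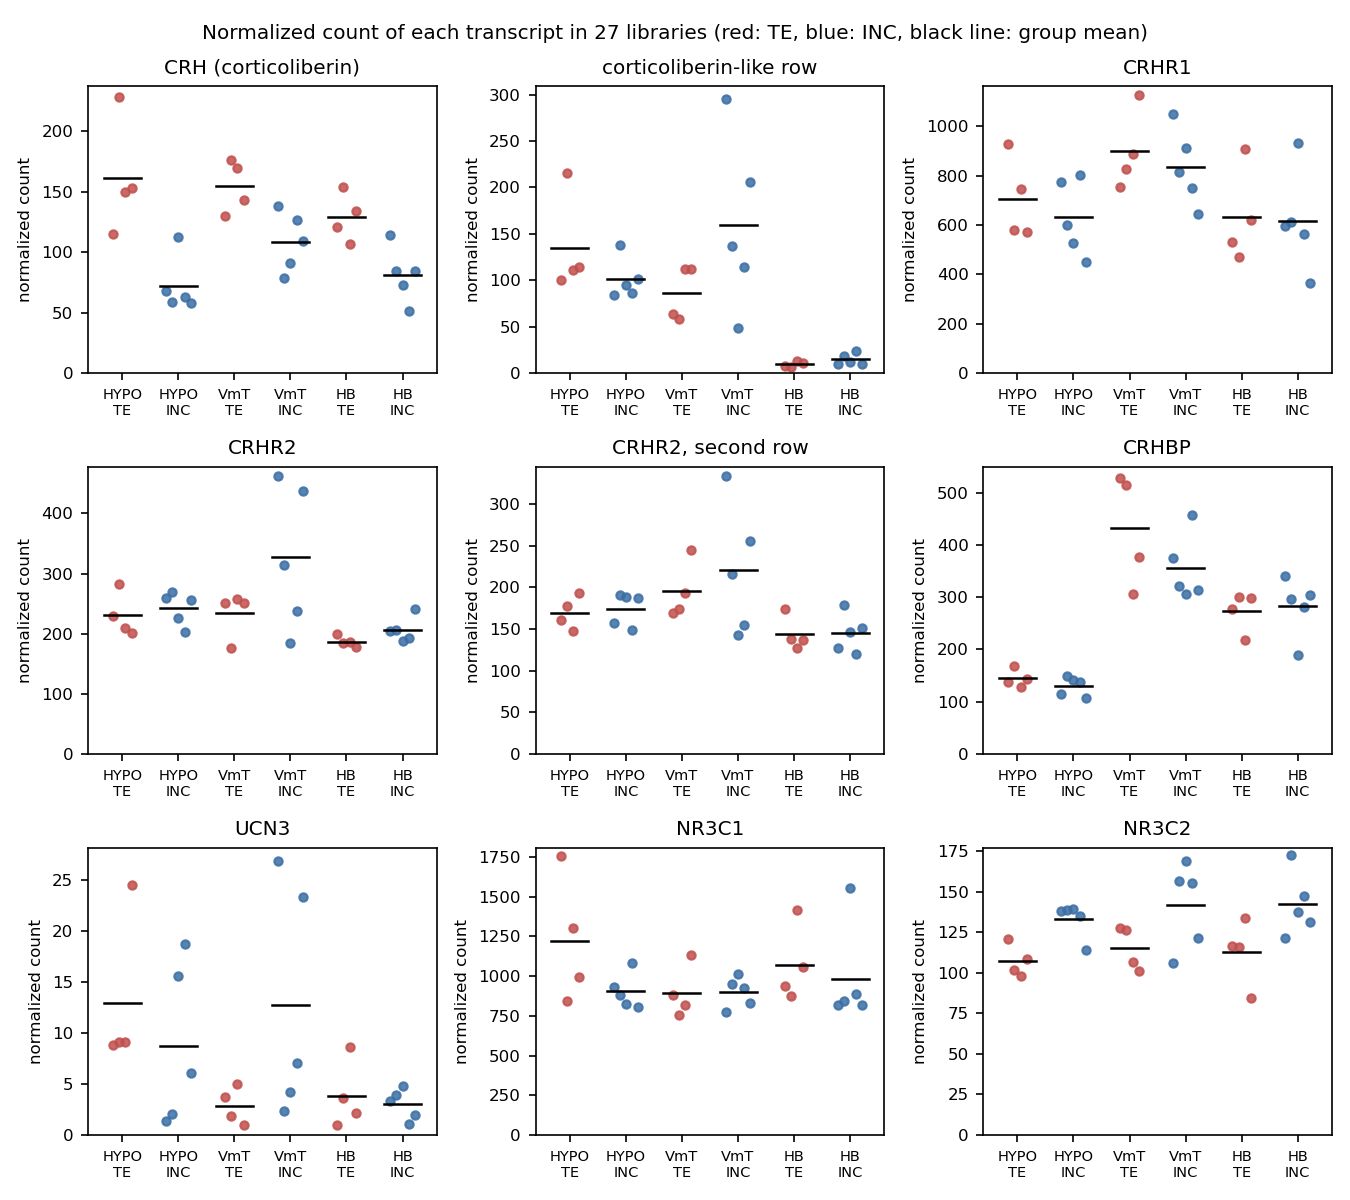
Normalized counts of the 7 members and of the second rows titled corticoliberin-like and CRHR2 in each of the 27 libraries, 1 panel per transcript with its own axis; red points are territory establishment, blue points incubation, and black lines group means. CRH in the HYPO is the only panel position where every TE point (115 and above) lies over every INC point (112 and below) in that region, and CRHBP is low in all HYPO libraries (107 to 168).

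The CRH row, titled for the peptide that starts the axis, was higher during TE than during INC in the HYPO. The HYPO libraries of the TE females 85674, 85689, 85691 and 85694 had 115, 229, 150 and 153 normalized counts. Those of the INC females 85757, 85774, 85840, 85889 and 85899 had 67.6, 58.6, 112, 62.7 and 58.0. The stages did not overlap, although INC female 85840 (112) lay close to TE female 85674 (115); of all transcripts, 3.74% likewise had every TE value over every INC value in the HYPO. The means were 161 ± 47.9 (SD, n = 4) and 71.8 ± 22.9 (SD, n = 5), a 2.25-fold ratio. The log2 difference was 1.16 (standard error 0.22, 95% interval 0.71 to 1.61; limma adjusted p = 0.0144). CRH was the only 1 of the 7 members called between stages in the HYPO, where 0.293% of all transcripts were called higher during TE and 0.514% were called in either direction. An unadjusted p under 0.05 was found for 3 of the 7, beside 2762 of all 19473 transcripts.

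The CRH call in the HYPO depended on single libraries. It was lost without the HYPO library of TE female 85689 (log2 difference 0.98, adjusted p = 0.0727), 85691 (0.0599) or 85694 (0.0504), or of INC female 85889 (0.0539) or 85899 (0.0551), and kept in 22 of 27 fits that each left out 1 library, with differences from 0.98 to 1.33. It was also lost with the log2 sum of transcripts with a mean under 10 normalized counts as a covariate (1.13, adjusted p = 0.0519) and when the 2 rows titled corticoliberin were summed (0.73, adjusted p = 0.122).

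Other transcripts of paraventricular neurons were read in the same HYPO blocks. Of 7 markers of that nucleus, 5 matched a title. Their mean log2 level was 7.66, 7.90, 7.79 and 8.72 in the TE females, in the order above, and 7.53, 7.61, 7.60, 7.34 and 6.35 in the INC females, so that every TE library lay above every INC library. The summed level of the 5 markers overlapped, at 6171 to 8004 during TE and 6793 to 7209 during INC. These markers are not confined to that nucleus. In the VmT their summed level was 8202 to 12280 during TE and 6438 to 9355 during INC. Their mean log2 level there was 5.84 to 6.58 and 6.05 to 7.63. VT, the peptide vasotocin, ranged from 442 to 963 normalized counts during TE and from 49.3 to 559 during INC. TRH, the thyrotropin-releasing hormone, ranged from 63.8 to 320 and from 9.52 to 133, and OTP, a transcription factor of these neurons, from 19.6 to 79.0 and from 11.5 to 33.3. POU3F2, another such factor, ranged from 50.3 to 95.1 and from 48.9 to 88.7. ARNT2, which has the highest counts of the 5 and so weighs most in their sum, had a lower mean during TE (6229, range 5549 to 6562) than during INC (6598, range 6334 to 6934). By limma none of the 5 was itself called between stages in the HYPO. An unadjusted p under 0.05 was found for 2 of them, beside 2762 of all 19473 transcripts. None of the 5 was at 0 in all libraries of a group, and their part in the CRH difference was not tested.

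Outside the HYPO the CRH differences had the same sign and were not called. In the VmT, CRH had 130, 176, 169 and 143 normalized counts in the TE libraries (the 169 is the unsettled library) and 138, 78.8, 91.3, 126 and 109 in the INC libraries. The stages overlapped through INC female 85757, and the log2 difference was 0.52 (SE 0.22, 95% interval 0.07 to 0.98; adjusted p = 0.228). In the HB, CRH had 121, 154, 106 and 134 during TE and 114, 84.3, 72.5, 50.9 and 84.8 during INC. Only INC female 85757, at 114, reached into the TE range. The log2 difference was 0.69 (SE 0.22, 95% interval 0.24 to 1.14; unadjusted p = 0.00421, adjusted p = 1), in a contrast where 0.00514% of all transcripts were called. Without the HB library that held pituitary RNA, whose CRH level of 50.9 was the lowest of the 27, the HB difference was 0.54 (adjusted p = 1).

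CRH levels overlapped between the regions. From high to low, the group means were 161 (HYPO, TE), 155 (VmT, TE), 129 (HB, TE), 109 (VmT, INC), 81.3 (HB, INC) and 71.8 (HYPO, INC), and every pair of neighbours in this order had overlapping libraries. The 3 TE groups thus stood above the 3 INC groups. CRH was higher in the VmT than in the HB by 0.35 (SE 0.16, 95% interval 0.03 to 0.67; unadjusted p = 0.034, limma adjusted p = 0.0723), which passed with edgeR (adjusted p = 0.0294), DESeq2 (0.0347) and TMM factors (0.0335), and was 0.27 (limma adjusted p = 0.15) without the HB library with pituitary RNA. Taken as the mean over the 3 regions, a contrast added after the values were seen, the CRH stage difference was 0.79 (SE 0.13, 95% interval 0.53 to 1.05; adjusted p = 0.00418), and 0.211% of all transcripts were called higher during TE in it. With the libraries of a female treated as a block it was also 0.79 (adjusted p = 0.0229). It was 0.73 to 0.85 and called in all 27 fits that each left out 1 library (adjusted p at most 0.0103). The HB library with pituitary RNA was among those left out. In 13 other settings, among them the fit without the VmT libraries with high hypothalamus markers, it was 0.76 to 0.84 and called. With the 9 females as the units, each by the mean log2 level of her settled libraries, it was 0.76 (SE 0.16; two-sided exact permutation p = 0.0159, the smallest that 4 against 5 females allow; a test added after the values were seen). The female means over her regions were 122, 186, 128 and 143 during TE, where the 128 is the mean of the HYPO and HB libraries of female 85691 alone, and 107, 73.9, 92.0, 80.0 and 83.9 during INC. The test over the 9 females was not repeated without single libraries. TE female 85689 had the highest CRH value in each region. The CRH stage difference in the HYPO was not shown to exceed that in the VmT (difference 0.64, SE 0.31, 95% interval -0.0038 to 1.28; adjusted p = 0.287) or in the HB (0.47, SE 0.31, 95% interval -0.17 to 1.11; adjusted p = 1.0).

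A second row, titled corticoliberin-like, kept a different pattern and was not a member. It was abundant in the HYPO and VmT and scarce in the HB. Its HB libraries had 7.03, 6.38, 13.0 and 10.9 normalized counts during TE and 10.1, 18.6, 11.6, 23.9 and 9.75 during INC. Its HYPO libraries had 100, 216, 111 and 114 and then 84.5, 138, 94.6, 86.7 and 101. Its VmT libraries had 63.4, 58.5, 112 and 112 and then 295, 136, 48.3, 114 and 206, the highest being the INC libraries of 85757 and 85899. No HB library reached any library of another region. That held against the HYPO for 1.19% of all transcripts and against the VmT for 4.76%.

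The corticoliberin-like row was higher in the HYPO than in the HB by 3.23 on the log2 scale (SE 0.26, adjusted p = 3.89e-10) and higher in the VmT than in the HB by 3.13 (SE 0.26, adjusted p = 8.65e-11), while the HYPO and VmT differed by 0.09 (not called). Without the HB library with pituitary RNA the values against the HB were 3.32 and 3.22 (adjusted p = 3.77e-10 and 9.54e-11), and without the VmT libraries of 85757 and 85899 the VmT to HB value was 2.85 (adjusted p = 4.69e-10). The row taken as CRH, by contrast, differed by 0.06 between the HYPO and HB. The stage differences of the corticoliberin-like row were 0.37 in the HYPO, -0.71 in the VmT and -0.58 in the HB (adjusted p = 0.741, 0.362 and 1), none called, and the VmT value became -0.13 without the libraries of 85757 and 85899. Both rows carry the same title once the ending is dropped, and how the counting treated reads that fit both is not given in the sources used here, so the split of reads between them is uncertain. Whether they stand for separate genes or for parts of the same gene was not settled, so neither pattern alone can be taken as that of the whole gene. Summed over both rows, the HYPO stage difference was 0.73 (adjusted p = 0.122) and the mean over the regions 0.40 (adjusted p = 0.188), neither called.

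**Figure D2:**
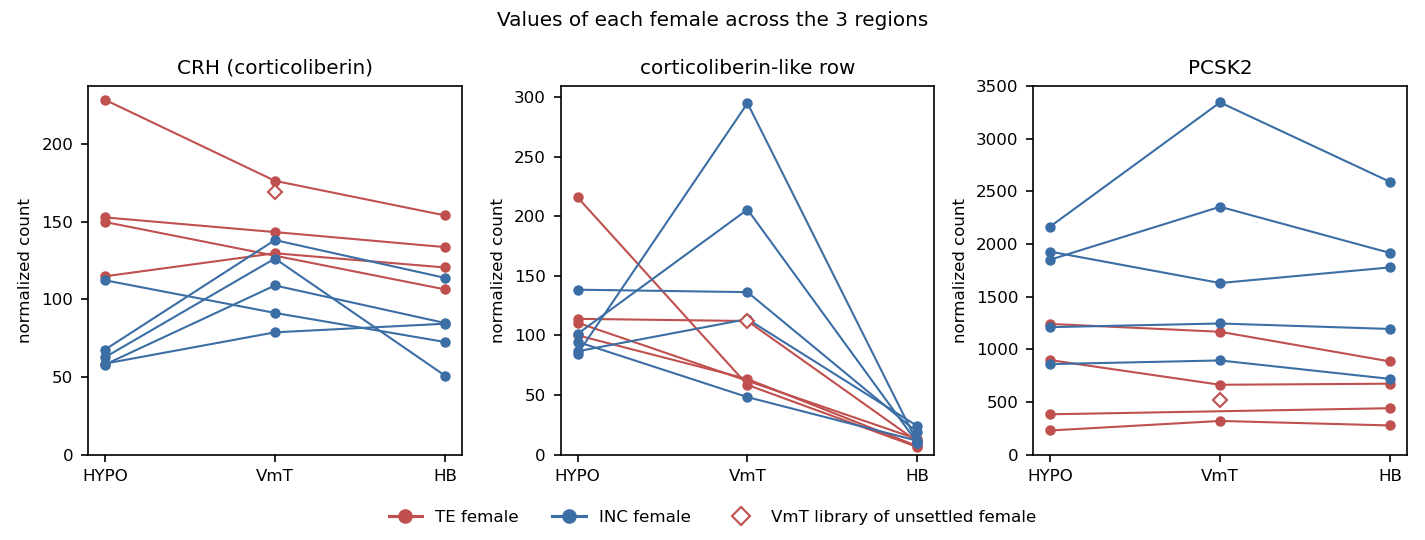
Normalized counts (vertical axis) of CRH, the corticoliberin-like row and PCSK2 in each region (horizontal axis); each line joins the libraries of 1 female, red for territory establishment and blue for incubation, the line of female 85691 joins HYPO and HB only, and the open diamond is the unsettled VmT library. CRH lines of the TE females lie mostly over those of the INC females, corticoliberin-like falls to at most 23.9 in the HB in every female, and PCSK2 changes little along each line while the lines lie far apart.

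UCN3, a peptide that in mammals acts through CRHR2 and hardly through CRHR1, was near the lower limit of what these libraries measured, so the added 1 makes its log2 differences too small. In the HYPO it had 8.83, 9.14, 9.12 and 24.6 normalized counts during TE and 1.41, 2.02, 15.6, 18.8 and 6.06 during INC. In the VmT it had 3.73, 1.86, 5.02 and 0.975 during TE and 26.9, 2.35, 4.20, 7.06 and 23.3 during INC, and in the HB no library passed 8.69. The high VmT values were again those of INC females 85757 and 85899.

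UCN3 passed no stage test. The log2 differences were 0.86 in the HYPO (95% interval -0.46 to 2.17; adjusted p = 0.617), -1.48 in the VmT (95% interval -2.79 to -0.16; adjusted p = 0.246) and 0.13 in the HB. Without the VmT libraries of 85757 and 85899 the VmT difference was -0.55 (adjusted p = 0.754). The HYPO and VmT stage differences differed by 2.33 (SE 0.91, unadjusted p = 0.0158, adjusted p = 0.147), and by 1.40 without these libraries (adjusted p = 0.449). Between regions, UCN3 was 1.26 above the HB in the HYPO (SE 0.45, limma adjusted p = 0.0674). This passed in 7 of 12 other settings. Among them were edgeR, DESeq2, the libraries of a female as a block (adjusted p = 0.0419) and the fit without the VmT libraries of 85757 and 85899 (adjusted p = 0.0367). It passed in 3 of 27 fits that each left out 1 library, and was 1.15 without the HB library with pituitary RNA (adjusted p = 0.114).

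CRHR1, the receptor through which CRH drives the pituitary, was higher in the VmT than in the HB. The VmT libraries had 754, 829, 887 and 1126 normalized counts during TE and 1049, 817, 913, 749 and 645 during INC, the HYPO libraries 928, 578, 748 and 574 and then 776, 600, 529, 804 and 448, and the HB libraries 532, 469, 910 and 620 and then 596, 613, 933, 565 and 366. All 3 regions overlapped. The VmT exceeded the HB by 0.51 on the log2 scale (SE 0.15, adjusted p = 0.00878), by 0.50 without the HB library with pituitary RNA (adjusted p = 0.0138) and by 0.51 without the VmT libraries of 85757 and 85899 (adjusted p = 0.0141). The HYPO was below the VmT by a log2 difference of -0.39 (adjusted p = 0.0645), or -0.40 with the block (adjusted p = 0.0252), and 0.12 above the HB. Its stage differences were 0.17, 0.11 and 0.06 in the HYPO, VmT and HB, with 95% intervals of -0.28 to 0.62, -0.34 to 0.56 and -0.39 to 0.51.

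CRHR2, the other receptor of this peptide family, was also higher in the VmT than in the HB, by 0.44 (SE 0.13, adjusted p = 0.00722). HB libraries held 178 to 241 normalized counts and HYPO libraries 202 to 283. The VmT libraries had 251, 176, 258 and 251 during TE and 463, 314, 185, 238 and 437 during INC. The spread during INC came from the same libraries as that of UCN3 and corticoliberin-like, 85757 and 85899, and without them the VmT exceeded the HB by 0.26 (adjusted p = 0.0449). Without the HB library with pituitary RNA it did by 0.43 (adjusted p = 0.0124). The second CRHR2 row showed 334, 216, 143, 155 and 256 in the VmT during INC, 121 to 245 in all other libraries, and a VmT to HB difference of 0.49 (adjusted p = 0.0029), which was 0.46 without that HB library (adjusted p = 0.00645) and 0.33 without 85757 and 85899 (adjusted p = 0.0159); reads of this gene may be split between the rows, so each value is uncertain.

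The CRHR2 stage differences were -0.07, -0.41 and -0.14 in the HYPO, VmT and HB. The VmT value (95% interval -0.79 to -0.03; unadjusted p = 0.0336, adjusted p = 0.264) was -0.05 without 85757 and 85899 and was called only without INC female 85840 (-0.60, adjusted p = 0.0449). The sum of transcripts with a mean under 10 normalized counts differed between libraries. With its log2 as a covariate in limma, neither CRHR1 (0.32, adjusted p = 0.332) nor the CRHR2 member row (0.35, adjusted p = 0.198) passed between the VmT and HB. The second CRHR2 row passed there in all 13 other settings, this covariate among them (adjusted p at most 0.0433).

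CRHBP, which binds CRH and urocortin outside the cell, was lower in the HYPO than in both other regions. The HYPO libraries had 137, 168, 129 and 144 normalized counts during TE and 114, 149, 142, 137 and 107 during INC. The VmT libraries had 528, 515, 306 and 377 and then 376, 321, 306, 457 and 315, and the HB libraries 278, 300, 218 and 299 and then 342, 297, 190, 281 and 304. The highest HYPO library, 168, lay below the lowest of the HB, 190, and of the VmT, 306. Of all transcripts, 2.45% had all HYPO libraries under all VmT libraries and 1.3% under all HB libraries.

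The HYPO was below the VmT by a log2 difference of -1.49 (SE 0.12, adjusted p = 2.55e-10) and below the HB by -1.01 (SE 0.12, adjusted p = 5.34e-07), and the VmT was above the HB by 0.48 (SE 0.12, adjusted p = 0.00159). Without the HB library with pituitary RNA the HYPO to HB value was -1.0 (adjusted p = 1.63e-06) and the VmT to HB value 0.49 (adjusted p = 0.00253). Without the VmT libraries of 85757 and 85899 the HYPO to VmT value was -1.50 (adjusted p = 4.50e-09). These 3 calls passed in all 27 fits that left out a library. In 13 other settings, among them the fit without the VmT libraries of 85757 and 85899, the VmT to HB value was 0.45 to 0.62 and called. CRHBP stage differences were 0.16, 0.26 and -0.03 in the HYPO, VmT and HB, with 95% intervals of -0.19 to 0.50, -0.08 to 0.61 and -0.38 to 0.32, and none was called.

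Counted over the 7 members, 1 (CRHBP) was called lower in the HYPO than in the VmT, where 11.7% of all transcripts were, and 1 (CRHBP) lower in the HYPO than in the HB, where 7.05% were. CRHR1, CRHR2 and CRHBP were called higher in the VmT than in the HB, 3 of 7 against 17.6% of all transcripts. CRH, UCN3, NR3C1 and NR3C2 were not called between any pair of regions in this fit. Between the HYPO and HB, edgeR and DESeq2 each called 2 of the 7 (CRHBP and UCN3), and between the VmT and HB 4, which included CRH. The shares above are those of limma and were not taken for these tools.

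**Figure D3:**
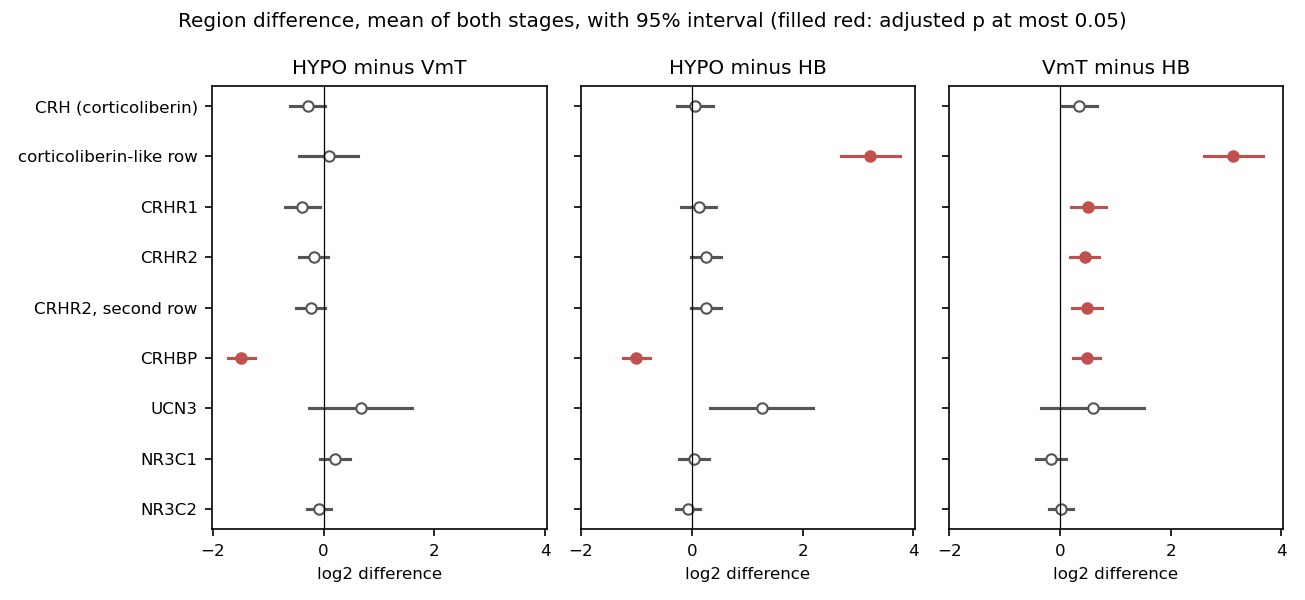
Log2 differences between regions (mean over both stages) with 95% intervals for the members and the second rows; filled red points passed an adjusted p of 0.05 and open points did not. CRHBP lies far to the HYPO-low side (-1.49 and -1.01), corticoliberin-like lies far above the HB in both other regions (3.23 and 3.13), and both corticosteroid receptors lie near 0 in all 3 comparisons.

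NR3C1, the glucocorticoid receptor, was measured at similar levels in all 3 regions. The HYPO libraries had 1757, 842, 1305 and 993 normalized counts during TE and 932, 884, 825, 1082 and 808 during INC. The VmT libraries had 879, 755, 818 and 1131 and then 773, 950, 1014, 924 and 830, and the HB libraries 936, 878, 1414 and 1057 and then 816, 843, 1552, 885 and 820. Single libraries made the spread: the HYPO library of TE female 85674, the HB library of TE female 85691 and the HB library of INC female 85840 were high, and each of these 3 also had a high CRHR1 value for its region (928, 910 and 933).

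The NR3C1 stage difference was 0.38 in the HYPO (SE 0.19, 95% interval 0.0024 to 0.77; unadjusted p = 0.0487, adjusted p = 0.349), -0.01 in the VmT (95% interval -0.40 to 0.37) and 0.15 in the HB (95% interval -0.23 to 0.53). With 1 library left out at a time the HYPO value ranged from 0.19 to 0.55. The region differences were 0.21 between the HYPO and VmT, 0.04 between the HYPO and HB and -0.17 between the VmT and HB, and none was called.

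NR3C2, the mineralocorticoid receptor, went the other way from CRH, with a lower mean during TE in each region. In the HYPO it had 121, 102, 97.7 and 109 normalized counts during TE and 138, 138, 139, 135 and 114 during INC, with only INC female 85899 in the TE range. In the VmT it had 128, 126, 107 and 101 and then 106, 156, 169, 155 and 121, and in the HB 117, 116, 134 and 84.8 and then 122, 173, 137, 148 and 132. The means were 107 ± 10.1 (SD, n = 4) and 133 ± 10.6 (SD, n = 5) in the HYPO, 116 ± 13.5 and 141 ± 26.7 in the VmT, and 113 ± 20.3 and 142 ± 19.4 in the HB.

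By limma no NR3C2 stage difference was called. They were -0.31 in the HYPO (SE 0.15, 95% interval -0.61 to -0.01; adjusted p = 0.332), -0.28 in the VmT (95% interval -0.58 to 0.02; adjusted p = 0.373) and -0.34 in the HB (95% interval -0.64 to -0.04; adjusted p = 1, and -0.33 without the library with pituitary RNA). The mean over the regions was -0.31 (SE 0.08, 95% interval -0.48 to -0.14; unadjusted p = 0.00107, adjusted p = 0.116). It passed with DESeq2 (-0.31, adjusted p = 0.0474) and array weights (-0.33, 0.0482), and in limma without the VmT library of INC female 85757 (-0.34, adjusted p = 0.0408) and without both VmT libraries with high hypothalamus markers (-0.37, adjusted p = 0.0221), while with the female as a block its adjusted p was 0.343. Between regions NR3C2 differed by -0.09, -0.07 and 0.01, none called.

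In the VmT and the HB none of the 7 members was called between stages by limma, edgeR's quasi-likelihood test or DESeq2, the last 2 on reads recovered from the values. In limma, 3 of 7 in the VmT and 2 of 7 in the HB had an unadjusted p under 0.05. Of all 19473 transcripts, 3028 in the VmT and 647 in the HB did. Of all transcripts, 3.53% were called in the VmT in either direction. Tests of whether a stage difference differed between regions called none of the 7 members with any of these tools. Between the HYPO and VmT, 1 of 7 (UCN3) had an unadjusted p under 0.05 and 5.95% of all transcripts were called (3442 had an unadjusted p under 0.05). Between the HYPO and HB 0 of 7 did, and 0% of all transcripts were called (1213 had an unadjusted p under 0.05). Between the VmT and HB 0 of 7 did, and 0.437% were called (1645 had an unadjusted p under 0.05).

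**Figure D4:**
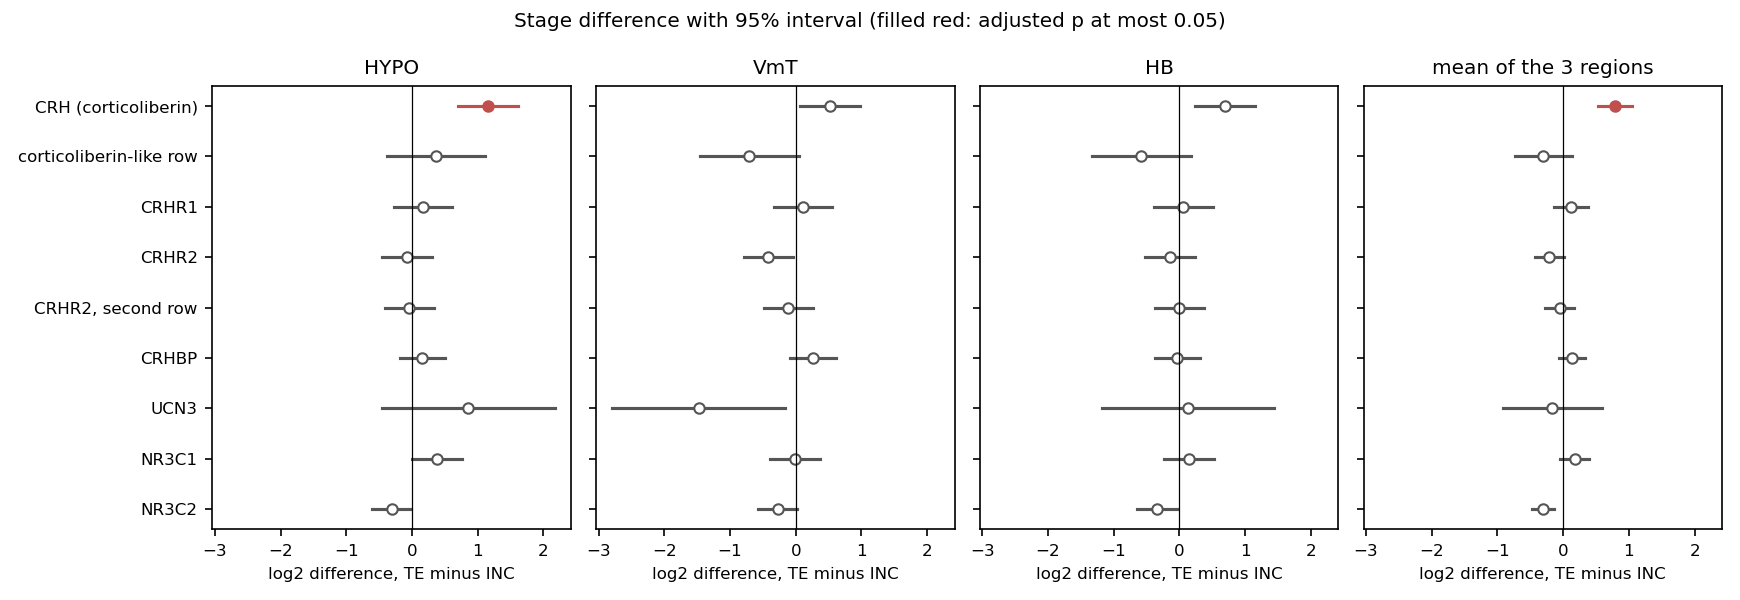
Log2 differences between stages (territory establishment minus incubation) with 95% intervals in the HYPO, VmT and HB and as the mean over the regions, for the members and the second rows; filled red points passed an adjusted p of 0.05 and open points did not. CRH lies to the TE side in each region and passed in the HYPO (1.16) and as the mean (0.79), and NR3C2 lies to the INC side in each region without passing.

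Transcripts whose 6 group means followed those of a member most closely were taken by Pearson r on the log2 scale, over 6 points that share libraries, as a description only. They were the highest of 11549 to 11551 candidates for each member, so the r values are high by selection. For CRH these were CLUAP1, clusterin-associated protein 1 (r = 0.995), alpha-soluble NSF attachment protein, which recycles SNARE complexes after vesicle fusion (0.993), transmembrane protein 170B (0.985), ZBTB45 (0.983) and leucine-, glutamate- and lysine-rich protein 1 (0.982). Their own group means spanned only 0.21 to 0.53 on the log2 scale, against 1.16 for CRH. For CRHBP they were PARP16 (0.995) and tetranectin (0.994), for CRHR1 pumilio homolog 2, an RNA-binding protein, and serine/threonine-protein kinase N2 (both 0.999), and for CRHR2 neurexin-1, a presynaptic adhesion protein (0.990), and heterogeneous nuclear ribonucleoprotein R (0.968). For UCN3 they were neurocan (0.990) and the netrin receptor UNC5B (0.971), for NR3C1 the clathrin assembly protein AP180 and the mitochondrial transporter ABCB10 (both 0.988), and for NR3C2 nucleolar GTP-binding protein 1 (0.990) and acid-sensing ion channel 4 (0.985).

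The rest of the pathway was read from 5 lists of genes taken by known role, with earlier results of these data known, 54 genes with a matching row in all. They were peptides and receptors of the axis (11 of 19 listed), chaperones of the corticosteroid receptors (10 of 12), enzymes and carriers of corticosteroids (8 of 13), genes known in mammals as glucocorticoid targets (17 of 19) and immediate early genes, which neural activity switches on (8 of 10). In the HYPO, limma called none of the 54 between stages, where 0.514% of all transcripts were called. With edgeR and DESeq2 none was called either. An unadjusted p under 0.05 was found for 13 of 54, and for 2762 of all 19473 transcripts. In the HB limma, edgeR and DESeq2 called none, where limma called 0.00514% of all transcripts. There 2 of 54 had an unadjusted p under 0.05, beside 647 of all 19473 transcripts. In the VmT, limma called 3 of 54, beside the 3.53% of all transcripts that limma called. With edgeR 5 were called and with DESeq2 8, and their shares of all transcripts are not given here.

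The VmT stage calls of limma fell on a steroid enzyme and on glucocorticoid targets; edgeR also called 1 axis gene and 1 immediate early gene, and DESeq2 2 axis genes, 1 chaperone, 1 immediate early gene and 1 more target. SRD5A1, a 5-alpha-reductase that inactivates corticosterone and converts testosterone, was higher during TE. Its VmT libraries had 27.1, 34.3, 44.5 and 39.0 normalized counts during TE (the 44.5 is the unsettled library) and 13.9, 29.4, 21, 18.8 and 14.5 during INC. The log2 difference was 0.89 (SE 0.25, adjusted p = 0.0465), a call close to the threshold that was lost in 26 of 41 alternatives. The paper had already reported SRD5A1 as higher during TE in the VmT, so this is not independent evidence.

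TXNIP, which restrains thioredoxin and glucose uptake, was lower during TE, with 102, 142, 119 and 174 normalized counts against 301, 235, 201, 185 and 212 during INC. Its log2 difference was -0.76 (SE 0.21, adjusted p = 0.0404; lost in 11 of 42 alternatives). CEBPD, a transcription factor induced by glucocorticoids and inflammation, was at most 1.95 during TE and 3.15 to 9.41 during INC in the VmT (log2 difference -1.68, SE 0.43, adjusted p = 0.0283; lost in 8 of 41 alternatives). Without the VmT libraries of 85757 and 85899 no call was left for these 3 genes (SRD5A1 0.63, adjusted p = 0.240; TXNIP -0.65, 0.150; CEBPD -1.63, 0.0806).

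For TXNIP and CEBPD the stage difference in the HYPO had the other sign, 0.63 and 1.19, neither called. The difference between the HYPO and VmT stage differences was called for both (1.40, adjusted p = 0.00381, and 2.87, adjusted p = 0.00394). It was also called for DDIT4, a glucocorticoid-induced inhibitor of mTOR (1.61, adjusted p = 0.0153), STUB1, a ubiquitin ligase that works with HSP90 (0.50, adjusted p = 0.0198), and VT (2.97, adjusted p = 0.0234), so for 5 of the 54 genes, all positive, where 5.95% of all transcripts were called. Without the VmT libraries of 85757 and 85899 the values were 1.28 for TXNIP, 2.82 for CEBPD, 1.53 for DDIT4 and 0.46 for STUB1, all called, and 2.61 for VT (adjusted p = 0.0802). VT was also lost without the HYPO library of TE female 85694, the VmT library of TE female 85689 or that of INC female 85889 (2.71 to 2.79), and STUB1 without the HYPO library of TE female 85689 (0.39, adjusted p = 0.0567). Hypothalamus and paraventricular markers went the same way in this contrast (medians 1.29 and 1.52, with 2 of 11 and 2 of 5 called), thalamus and midbrain markers had a median of 0.82 (2 of 15 called), and their part in these differences was not tested. VT is itself 1 of the 5 paraventricular markers, so the values of that list are in part its own. The paper had already reported VT as higher during INC in the VmT. Median stage differences of the glucocorticoid target list were 0.15 in the HYPO, -0.30 in the VmT and 0.05 in the HB, beside medians of -0.01, 0.01 and 0.01 over all transcripts.

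PCSK2, prohormone convertase 2, which cuts peptide precursors such as pro-opiomelanocortin, was the only list gene called by limma in the mean over the regions, where limma called 0.231% of all transcripts lower during TE. With edgeR 2 of the 54 were called and with DESeq2 5, and their shares of all transcripts are not given here. The log2 difference was -1.49 (SE 0.26, adjusted p = 0.00661), or -1.51 with the libraries of a female as a block (adjusted p = 0.015), and limma, edgeR and DESeq2 called it in all 41 alternatives. Its 3 regions are nearly repeats of each other within a female, so the libraries of a female are not independent. With the 9 females as the units the difference was -1.52 with an SE of 0.53 (two-sided exact permutation p = 0.0317, n = 4 and 5; a test added after the values were seen). No single region passed: PCSK2 differed by -1.44 in the HYPO (adjusted p = 0.116), -1.51 in the VmT (0.065) and -1.53 in the HB (1).

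Between regions the lists differed in direction. Of the 11 axis genes, 6 were called higher in the HYPO than in the VmT and none lower, where 14.1% of all transcripts were called higher, and 9 higher in the HYPO than in the HB and none lower, against 5.33%. Between the VmT and HB, 7 were higher and 1 lower, where 17.6% of all transcripts were called higher and 25.7% lower in the VmT. VT led, above the HB by 7.11 in the HYPO (adjusted p = 2.20e-13) and by 5.41 in the VmT (adjusted p = 1.10e-11), and higher in the HYPO than in the VmT by 1.70 (adjusted p = 0.00224). MC3R, a melanocortin receptor, was above the HB by 3.39 in the HYPO and by 2.19 in the VmT (adjusted p = 5.31e-11 and 3.74e-08). ADCYAP1, the neuropeptide PACAP, was higher in the HYPO than in the VmT by 1.23 (adjusted p = 2.90e-09).

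Chaperones keep the corticosteroid receptors ready to bind hormone. Of 10 chaperones, 1 was called between the HYPO and VmT (2 with the female as a block), 2 between the HYPO and HB and 6 between the VmT and HB, 5 of them lower in the VmT. In the fit without a block the calls with the HYPO were all lower there, beside 11.7% and 7.05% of all transcripts. Those of the VmT and HB stand beside 17.6% higher and 25.7% lower in the same fit. HSP90AB1, the HSP90 that holds the unliganded receptors, was lower in the HYPO than in the VmT (-0.46, adjusted p = 0.00185) and higher in the VmT than in the HB (0.48). STUB1 and PPID, a cyclophilin of the receptor complex, were lower in the HYPO than in the HB (-0.47 and -0.32, adjusted p = 7.37e-06 and 0.0197). AHSA1 and FKBP4, co-chaperones of HSP90, were lower in the VmT than in the HB (-1.71 and -1.69), but with means of 4.64 and 3.57 normalized counts and a direction that turned with the low-transcript covariate.

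Of 8 enzymes and carriers, 1 was called between the HYPO and VmT, none between the HYPO and HB (1 had an unadjusted p under 0.05; edgeR and DESeq2 called none) and 4 between the VmT and HB, 1 higher and 3 lower in the VmT. Of all transcripts, 11.7% were called lower in the HYPO than in the VmT, and 17.6% higher and 25.7% lower in the VmT than in the HB. Between the HYPO and HB, 5.33% were called higher and 7.05% lower in the HYPO, and 4865 of all 19473 had an unadjusted p under 0.05. With the female as a block 1 enzyme was called between the HYPO and HB, and the share of all transcripts in that fit is not given here. AKR1D1, a 5-beta-reductase that inactivates steroids, was highest in the VmT, above the HYPO (HYPO minus VmT -1.80, adjusted p = 6.45e-06) and the HB (2.02, adjusted p = 4.13e-07), and HSDL2, hydroxysteroid dehydrogenase-like protein 2, was lower in the VmT than in the HB (-0.61, adjusted p = 0.00026).

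Of 17 glucocorticoid targets, 4 were called higher and 1 lower in the HYPO than in the VmT, none between the HYPO and HB (2 had an unadjusted p under 0.05; edgeR and DESeq2 called none), and 2 higher and 6 lower in the VmT than in the HB. The shares of all transcripts were 14.1% higher and 11.7% lower between the HYPO and VmT and 17.6% higher and 25.7% lower between the VmT and HB. Between the HYPO and HB they were 5.33% higher and 7.05% lower, and 4865 of all 19473 transcripts had an unadjusted p under 0.05. With the female as a block the calls were 8, 1 and 11 in these comparisons. The shares above are those of the fit without a block, so whether this rise goes beyond that of all transcripts is not shown. ZBTB16 (0.77, adjusted p = 0.0252) and KLF9 (0.62, adjusted p = 6.70e-05), both transcription factors, led between the HYPO and VmT, and CDKN1C (-1.24, adjusted p = 0.0477, mean 2.62 normalized counts) and TXNIP (-0.70, adjusted p = 0.000345) between the VmT and HB.

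Of 8 immediate early genes, 3 were lower in the HYPO than in the VmT, 3 higher in the HYPO than in the HB and 5 higher in the VmT than in the HB, beside 11.7%, 5.33% and 17.6% of all transcripts. ARC, which acts at synapses, differed by -1.22, 1.36 and 2.58 in these comparisons and EGR1, a transcription factor, by -1.03, 0.92 and 1.95, all called. By limma none of the 8 was called between stages in any region. The number with an unadjusted p under 0.05 was 1 in the HYPO, 1 in the VmT and 0 in the HB. Of all 19473 transcripts, 2762, 3028 and 647 had such a p. With edgeR and DESeq2, 1 each was called in the VmT and none in the HYPO and HB.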

How the data were processed

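RNA of 3 brain regions was analysed in 27 libraries, 4 of TE and 5 of INC per region. The libraries came from 9 females, and from female 85692 as well if the unsettled VmT library is hers. The authors macrodissected the brains, extracted RNA with Trizol, made stranded mRNA libraries, trimmed paired reads (Trimmomatic 0.36), mapped them to a tree swallow transcriptome (Bowtie2 2.3.4.1), kept proper pairs (SAMtools 1.3.1), counted reads per transcript with their own scripts and used DESeq2 1.16.1 in R 3.4.1; versions are those of the paper and the submitters' processing notes. Whether counting used strand is not given in the sources used here. The deposited values are a depth-scaled signal, read counts over the size factor of the library: in each library, 100% of low values lay within 0.1 of a whole multiple of the library's step, and division by it gave back the reads. The authors removed female 85692, whose HYPO and HB RNA had low integrity. Her HYPO and HB samples are not analysed here, but the unsettled VmT library, which was kept, may be hers.

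Values were compared in R 4.3.3 with limma 3.58.1 (eBayes with trend) on log2 of the value plus 1, in 1 fit of the 6 groups, over transcripts that reached a value of 1 in 4 or more libraries. Alternatives were edgeR 4.0.16 and DESeq2 1.42.0 on the recovered reads, other pseudocounts (0.5 and 5), filters, normalizations and weights, each region alone, the sum over rows of a title, and each library left out. The mean over the regions, the low-transcript covariate the test over the 9 female means and leaving out VmT libraries 85757 and 85899 were chosen after the values were seen. Regions share females, so a fit with the female as a block was added (consensus correlation 0.205, the unsettled library as a block of its own). Only the limma fit was tested on simulated data, for the stage contrast in the HYPO.

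The members and lists were chosen with earlier results of these data known. Named were all members, the list genes called between stages or in a difference of stage differences, the 2 largest called region differences of each list, and the 5 (CRH) or 2 (other members) transcripts most alike in their group means with a mean of at least 50; the interaction genes were added after their values were seen.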

Additional observations from a re-analysis of the deposited data

Results flagged for a closer look

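In 54 groups of 4 or 5 libraries (6 for each of the 7 members and 2 second rows), 6 held a library far from the others of its group, by the gap to its nearest neighbour over the whole range (Dixon's 95% limit). Chance alone gives about 1 such group in 20. CRH in the HYPO during INC was highest in female 85840, with 112 normalized counts against 67.6 in the nearest library. Corticoliberin-like in the HYPO during TE was highest in female 85689, with 216 against 114. CRHR2 in the VmT during TE was lowest in female 85689, with 176 against 251. UCN3 in the HYPO during TE was highest in female 85694, with 24.6 against 9.14. NR3C1 in the HB during INC was highest in female 85840, with 1552 against 885. NR3C2 in the HYPO during INC was lowest in female 85899, with 114 against 135.

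For 5 list genes the stage difference in the HYPO differed from that in the VmT by the test of the difference itself. The log2 values were 2.97 for VT, 0.50 for STUB1, 1.61 for DDIT4, 2.87 for CEBPD and 1.40 for TXNIP. The value of VT was 2.61 (adjusted p = 0.0802) without the VmT libraries of INC females 85757 and 85899.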

How the results depend on the processing

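Over 42 alternative settings, 398 of 408 alternative values of the 10 called differences of the 7 members and 2 second rows stayed past the threshold with the same sign. Of 3279 values of uncalled differences, 30 newly passed and 101 changed sign while uncalled. UCN3 has no value at a mean of at least 50. Among called list genes, 140 of 1755 values were no longer past the threshold, and 2 changed sign: with the low-transcript sum as a covariate, FKBP4 between the VmT and HB was 0.17 and AHSA1 0.058. The cause was not tested.

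Members called between stages in the HYPO were 0 with the sum over the rows of a title (both CRH rows together 0.73) and with the low-transcript covariate (CRH 1.13, adjusted p = 0.0519), and 0 to 1 with a library left out (CRH 0.98 to 1.33). In the VmT they were 0 to 1 with a library left out. Between the HYPO and VmT they were 2 with TMM factors and 1 to 2 with a library left out. Between the HYPO and HB they were 2 with quantile normalization, array weights, edgeR, DESeq2, the sum over rows, the low-transcript covariate and without VmT libraries 85757 and 85899, and 1 to 2 with a library left out. Between the VmT and HB they were 1 with the low-transcript covariate, and 4, with CRH, with TMM factors (CRH 0.41), edgeR, DESeq2, and without the HB library of 85757 (CRH 0.41, adjusted p = 0.032) or the VmT library of 85774 (0.40, 0.0413). With the sum over rows they were also 4. There the value counted for CRH is that of both rows together, and the corticoliberin-like row alone differs by 3.13. In the mean over the regions they were 2 with array weights, DESeq2 and without VmT libraries 85757 and 85899, 0 with the sum over rows (both CRH rows together 0.40), and 1 to 2 with a library left out.

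With the female as a block (pairing the regions), 2 members were called between the HYPO and VmT (CRHR1 -0.40) and 2 between the HYPO and HB (UCN3 1.26), and no other call of a member changed (CRH in the HYPO 1.17, adjusted p = 0.0168). With 4 against 5 females, the adjusted p of CRH in the HYPO ran from 0.00795 to 0.0727 with 1 library left out, on both sides of the threshold. UCN3, with a mean of 7.47 normalized counts, is also limited by depth.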

Other observations

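PCSK2, the convertase that differed between stages in the mean over the regions, varied mainly by female. In the order HYPO, VmT and HB, INC female 85757 had 2166, 3346 and 2591 normalized counts, 85774 had 860, 895 and 720, 85840 had 1929, 1630 and 1779, 85889 had 1211, 1246 and 1194, and 85899 had 1852, 2355 and 1916. Among the TE females, 85674 had 1242, 1167 and 885, 85689 had 898, 664 and 674, and 85694 had 229, 320 and 277. Female 85691 had 383 in the HYPO and 441 in the HB, and the unsettled VmT library had 517. Within a female the highest region was 1.04 to 1.54 times the lowest, while female means ran from 275 to 2701. INC female 85774 lay below TE female 85674 in each region, so the stages overlapped in all 3.

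NR3C1 and CRHR1 were high together in single libraries, and for females 85840 and 85674 not in both regions given here. In the HB, TE female 85691 had 1414 and 910 normalized counts and INC female 85840 had 1552 and 933, while 85840 had 825 and 529 in the HYPO. In the HYPO, TE female 85674 had 1757 and 928, and 936 and 532 in the HB. TE female 85691, however, had 1305 and 748 in the HYPO, an NR3C1 value passed there only by 85674.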
